A study of Mus musculus with 10 samples.

Results

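The 10 immediate early and AP-1 genes Fos, Fosb, Jun, Junb, Egr1, Egr2, Atf3, Ier2, Ier3 and Dusp1 were followed in bone marrow derived macrophages (BMDMs) of Rac2-/- and WT mice. They were chosen by name, out of 19935 genes that could be named on the array, and each was read from the array feature mapped to its symbol alone. All 10 had exactly 1 such feature, and all 10 passed the filter on low values. Rac2 is a small GTPase of blood cells that acts downstream of the MCSF receptor and of integrins.

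RNA of BMDMs from 5 Rac2-/- and 5 WT mice was read on whole-transcript microarrays (Affymetrix), numbered 1 to 5 in each genotype. The mice were male, on the C57BL background, and the methods describe Rac2-/- animals and normal littermates. Cells of both genotypes had been grown on MCSF at 50 ng/ml for 7 days, in 20% FBS and 16% oxygen, and received no other treatment. The values are read here as levels under continued growth factor, with no new stimulus named. Whether the last steps before lysis moved these genes was not tested. The labels give 8 days of culture and over 80% Mac1-positive cells.

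Immediate early genes are switched on within minutes of a growth factor, cytokine or stress signal, without new protein synthesis, and their mRNAs are short-lived. Fos and Jun family proteins pair through leucine zippers to form AP-1, which binds DNA and drives or restrains target genes, while Egr proteins are zinc finger factors induced through the ERK pathway and serum response factor. In macrophages, which depend on MCSF, these genes are known as readouts of MAP kinase activity, and several of them (Atf3, Dusp1, Ier3) feed back on the signals that induce them.

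The deleted gene was checked before the members. Rac2 averaged 7.10 ± 0.29 in Rac2-/- arrays and 12.10 ± 0.27 in WT arrays (log2 units, SD, n = 5 each), a difference of -5.00 (SE 0.17; limma, adjusted p = 7.73e-07), and no array went against its label. Of the macrophage markers, 10 of 11 were tested, their mean level was 11.81 to 12.12 in Rac2-/- arrays and 11.93 to 12.15 in WT arrays, and 0 of 10 were called. With the replicate number as a block, a fit that calls 6.35% of features, 2 of the 10 passed. They were the integrin gene Itgam (0.33, adjusted p = 0.038 with the block and 0.0559 without) and the Fc receptor gene Fcgr1 (-0.74, adjusted p = 0.0449 with the block and 0.123 without). Their groups did not overlap, nor did those of Cd68 (-0.23; limma, adjusted p = 0.251). Of all features, 2.18% lay wholly above WT and 2.34% wholly below it. In both genotypes arrays 1 and 2 stood apart from arrays 3 to 5, with correlations over all features of 0.974 to 0.996 within these array sets and 0.934 to 0.955 between them. The labels name no batch, and both genotypes are spread over both array sets in the same way. Arrays 3 and 4 were the closest pair in each genotype (r = 0.993 in Rac2-/- and 0.996 in WT). The tests treat the arrays of a genotype as independent, which was not checked for this pair. Rac2-/- array 5 differed from the rest in the proliferation marker Mki67, which was 10.51 on this array, 6.85 to 7.82 on Rac2-/- arrays 1 to 4 and 5.85 to 7.45 on WT arrays. Fits without Rac2-/- array 5 are given for the named genes, other than Il1b, on the lists used here whose call it changes.

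Among the 10 genes, Ier3 rose in Rac2-/- BMDMs, to 1.63-fold the WT level. Jun and Atf3 lay lower in every Rac2-/- array than in any WT array, at 0.636 and 0.593 of the WT level, but missed the adjusted threshold of 0.05. Thus 2 of 10 genes lay wholly below WT and 1 wholly above it, as did 2.34% and 2.18% of all features. The other 7 genes, the remaining Fos and Jun family members and both Egr genes among them, had overlapping groups. The differences were 4 higher and 6 lower in Rac2-/-, with a median of -0.11 on the log2 scale, where the median over all features was 0 and the median size of a difference 0.104. In limma over all 10 arrays with no block, 1 of 10 genes passed the test, against 1.9% of all features tested (0.795% higher and 1.11% lower in Rac2-/-). In bulk RNA, fewer cells that express a gene and less RNA per cell cannot be told apart.

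**Figure D1:**
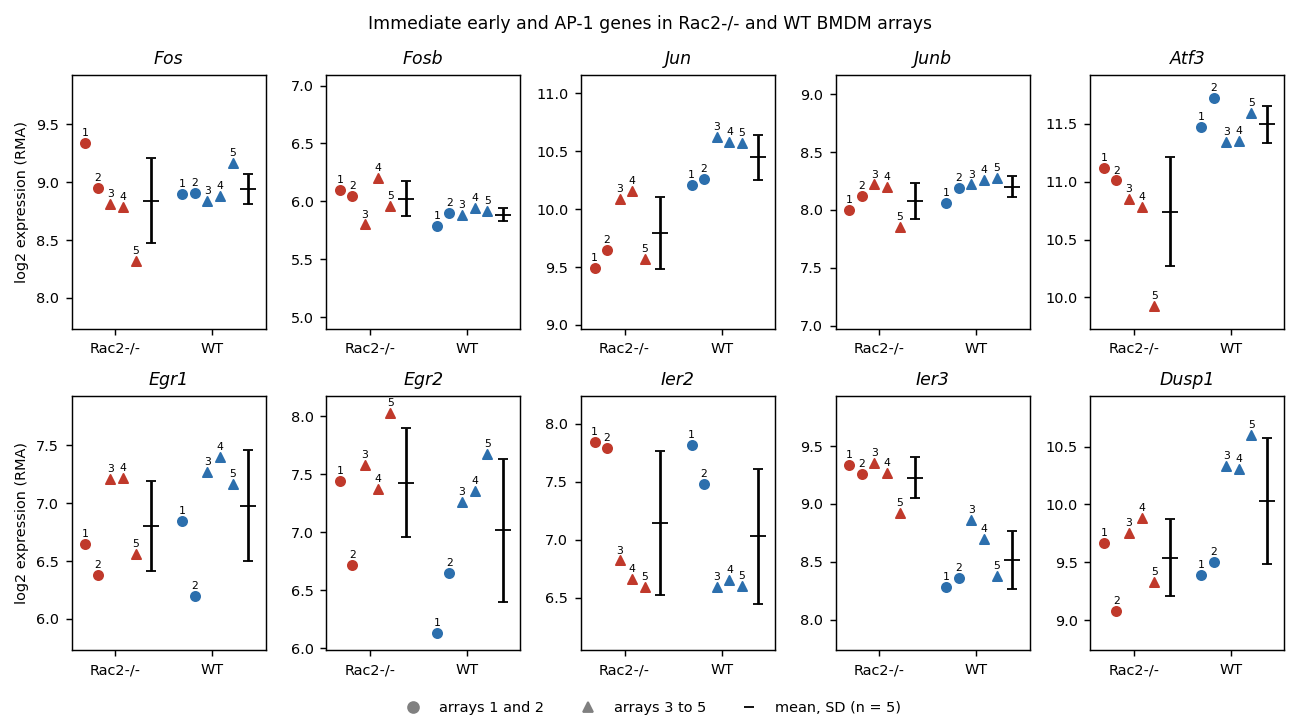
Log2 expression of the 10 genes on each array, with Rac2-/- (red) left of WT (blue), circles for arrays 1 and 2, triangles for arrays 3 to 5, the array number above each point, and bars for mean and SD (n = 5). Each panel spans the same range of log2 units on its own axis. Jun and Atf3 lie wholly below WT and Ier3 wholly above it, and Ier2 splits by array set rather than by genotype.

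The promoters of these 3 genes, whose groups did not overlap, are shown here to place them beside the signals they are known to answer. The sequences are the RefSeq windows on build GRCm38.p6, 250 bases before to 50 bases after the annotated start, in lower case with the motif matches in capitals, 5′ to 3′ on the strand of the gene. The Jun window is chr4:95052173-95052472 (minus strand), the Atf3 window chr1:191183284-191183583 (minus strand) and the Ier3 window chr17:35821463-35821762 (plus strand).
Jun: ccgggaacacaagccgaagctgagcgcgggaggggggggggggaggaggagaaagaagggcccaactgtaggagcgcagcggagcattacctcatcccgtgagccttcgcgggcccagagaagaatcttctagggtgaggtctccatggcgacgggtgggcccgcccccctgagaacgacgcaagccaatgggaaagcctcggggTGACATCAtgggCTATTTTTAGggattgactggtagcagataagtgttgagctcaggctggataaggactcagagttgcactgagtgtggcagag
Atf3: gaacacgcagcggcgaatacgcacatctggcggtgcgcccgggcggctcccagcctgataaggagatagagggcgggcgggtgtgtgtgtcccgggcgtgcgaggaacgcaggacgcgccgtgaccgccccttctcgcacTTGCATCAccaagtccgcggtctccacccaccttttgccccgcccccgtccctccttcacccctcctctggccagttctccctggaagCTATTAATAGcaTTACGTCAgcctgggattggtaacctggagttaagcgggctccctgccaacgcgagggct
Ier3: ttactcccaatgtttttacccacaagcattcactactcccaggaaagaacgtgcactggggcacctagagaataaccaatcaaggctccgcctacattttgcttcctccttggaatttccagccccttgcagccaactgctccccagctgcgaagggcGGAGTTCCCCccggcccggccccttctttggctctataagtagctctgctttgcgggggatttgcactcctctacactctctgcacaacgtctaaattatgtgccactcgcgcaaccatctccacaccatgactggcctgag
In Jun the capitals mark TGACATCA, a variant of the AP-1 element, whose first base lies 45 bases before the start, and a MEF2 site 33 bases before it. In Atf3 they mark TTGCATCA (TGATGNAA on the reverse strand, the core of the C/EBP-ATF element) 110 bases before the start, a MEF2 site 22 bases before it, and TTACGTCA, a variant of the cAMP response element, 10 bases before it. In Ier3 they mark an NF-kB site on the reverse strand, 92 bases before the start. None of these matches overlaps another. A match is a run of letters and not a measured binding site.

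Windows were available for 8 of the 10 genes, and those of Egr1 and Ier2 were not analysed here. Egr2 had 5 windows and each other gene 1. A gene was counted if any of its windows held a match, while the shares are of windows, so the 2 are unlike measures. Both strands were searched. The full cAMP response element TGACGTCA was found only in Dusp1, 143 bases before its start, and stands in 1.79% of 32851 promoter windows, against 0.499% for TTACGTCA. The AP-1 element TGACTCA was found in 0 of the 8 genes and in 5.2% of windows, TGACATCA in 3.62% and TGATGNAA in 3.97%. MEF2 sites were in 2 genes (Jun and Atf3) and 0.557% of windows. NF-kB sites were in 4 genes (Fos, Fosb, Egr2 and Ier3) and 8.46% of windows, the pair in Egr2 lying over one another on opposite strands. The CArG box, which serum response factor binds, was in 1 gene, Egr2, and in 1.63% of windows. Junb held none of these. Sites more than 250 bases before a start were not searched, so a gene with no match here may hold one further off.

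Jun encodes c-Jun, the AP-1 subunit that JNK phosphorylates and that can activate its own promoter. It was measured at 9.49, 9.65, 10.09, 10.16 and 9.57 in Rac2-/- arrays 1 to 5, against 10.21, 10.26, 10.62, 10.58 and 10.57 in WT arrays 1 to 5. Every Rac2-/- array was below every WT array. The difference was -0.65 (SE 0.16), with an adjusted p of 0.0768 in limma over all features. It was called with the replicate number as a block (adjusted p = 0.0132, a fit that calls 6.35% of features) and with a term for the array set (adjusted p = 0.00468, a fit that calls 9.34%). The array sets gave nearly the same value, -0.66 in arrays 1 and 2 and -0.65 in arrays 3 to 5. Leaving out any 1 array moved the difference between -0.74 and -0.58 and the adjusted p between 0.0628 and 0.195, so no such fit called it. Without Rac2-/- array 5 the difference was -0.60 (adjusted p = 0.155).

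Atf3 encodes a stress-induced member of the CREB/ATF family that acts mostly as a repressor and, in mouse macrophages, restrains inflammatory cytokine genes. Its values were 11.12, 11.01, 10.85, 10.78 and 9.93 in Rac2-/- arrays 1 to 5, against 11.47, 11.72, 11.34, 11.35 and 11.59 in WT arrays 1 to 5. The groups did not overlap, and Rac2-/- array 5 stood well below the other 4 of its group. The difference was -0.75 (SE 0.21; limma, adjusted p = 0.124), it was -0.53 in arrays 1 and 2 and -0.90 in arrays 3 to 5, and it missed the threshold with the block too (adjusted p = 0.0669). With a term for the array set it was called (adjusted p = 0.0244). Without Rac2-/- array 5 the difference was smaller, -0.55, and was called in limma (adjusted p = 0.047), the only one of 10 such fits to call it. The largest adjusted p, 0.26, came without WT array 5.

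Ier3 encodes a short-lived protein (IEX-1) that NF-kB and ERK signals induce and that modulates ERK signalling and cell death. It was measured at 9.34, 9.26, 9.35, 9.27 and 8.92 in Rac2-/- arrays 1 to 5, against 8.28, 8.36, 8.86, 8.70 and 8.38 in WT arrays 1 to 5. Every Rac2-/- array lay above every WT array, and again Rac2-/- array 5 was the lowest of its group. The mean was 9.23 ± 0.18 in Rac2-/- and 8.52 ± 0.25 in WT (SD, n = 5 each), a difference of 0.71 (SE 0.14; limma, adjusted p = 0.0264). It was 0.98 in arrays 1 and 2 and 0.53 in arrays 3 to 5, and the test that these differ gave an unadjusted p of 0.0877 (interaction term in limma over all 10 arrays). Neither set alone gave a call (limma, adjusted p of 0.205 in arrays 1 and 2 and 0.125 in arrays 3 to 5). The call held with the block (adjusted p = 0.0133) and the array set term (adjusted p = 0.00789). It held in 3 of 10 fits that left out 1 array, those without Rac2-/- array 1, Rac2-/- array 5 or WT array 3, and was lost without any one of Rac2-/- arrays 2, 3 and 4 and WT arrays 1, 2, 4 and 5. The adjusted p ranged from 0.0176 without Rac2-/- array 5 to 0.0783 without WT array 5, and the difference from 0.65 to 0.80.

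**Figure D2:**
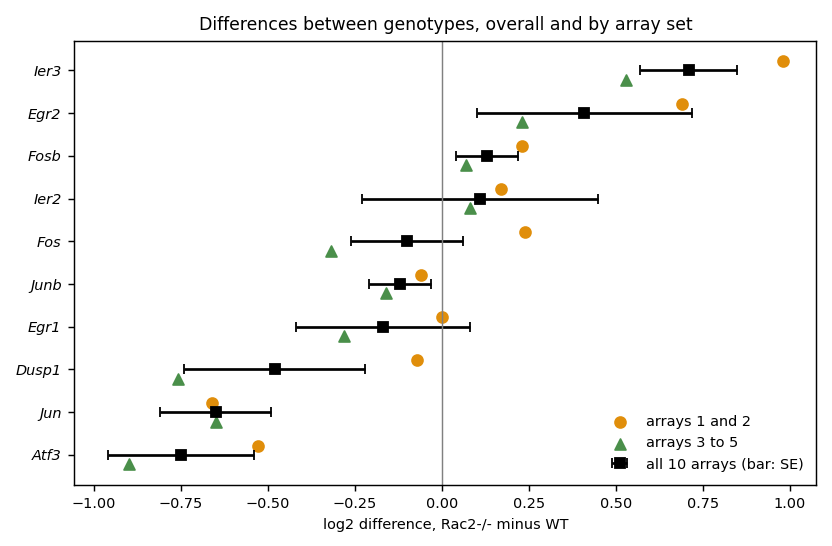
Log2 difference, Rac2-/- minus WT, for each of the 10 genes over all 10 arrays (black squares, bars for the standard error of the limma fit), in arrays 1 and 2 (orange circles) and in arrays 3 to 5 (green triangles). Ier3 is at 0.71 and Atf3 at -0.75, and Fos is the gene whose array sets lie on opposite sides of 0, at 0.24 and -0.32.

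Of the other 3 AP-1 subunits none passed the test. Fos, the partner that gives AP-1 its strongest dimers with Jun, was measured at 9.34, 8.95, 8.81, 8.79 and 8.32 in Rac2-/- arrays 1 to 5 and at 8.90, 8.91, 8.84, 8.88 and 9.17 in WT arrays 1 to 5. The Rac2-/- arrays spread on both sides of the WT values, with an SD of 0.37 in Rac2-/- and 0.13 in WT. The difference of -0.10 (SE 0.16; limma, adjusted p = 0.999) was smaller than its error. It was 0.24 in arrays 1 and 2 and -0.32 in arrays 3 to 5 (interaction -0.56, unadjusted p = 0.0546, adjusted p = 0.876), and without Rac2-/- array 5 it was 0.04 over the other 9 arrays.

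Fosb, a Fos relative, was measured at 6.10, 6.05, 5.80, 6.20 and 5.96 in Rac2-/- arrays 1 to 5 and at 5.79, 5.90, 5.88, 5.94 and 5.92 in WT arrays 1 to 5. The groups overlapped, and the difference of 0.13 (SE 0.09) had an adjusted p of 0.768 in limma. Fosb was low, close to the array medians over all deposited features (6.07 to 6.14), and whether it was expressed was not tested. Junb, which activates fewer AP-1 targets than Jun and can oppose it, was measured at 8.00, 8.12, 8.22, 8.20 and 7.85 in Rac2-/- arrays 1 to 5 and at 8.06, 8.19, 8.22, 8.26 and 8.28 in WT arrays 1 to 5. In each array number the Rac2-/- value was at or below the WT value, but the groups overlapped, with a difference of -0.12 (SE 0.09; limma, adjusted p = 0.849).

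Over all arrays the Egr genes differed more between array sets than between genotypes, with array sets that did not overlap in WT and did in Rac2-/-. Egr1, the prototype early growth response factor, was measured at 6.65, 6.38, 7.21, 7.22 and 6.56 in Rac2-/- arrays 1 to 5 and at 6.85, 6.20, 7.27, 7.40 and 7.17 in WT arrays 1 to 5. The groups overlapped, with a difference of -0.17 (SE 0.25; limma, adjusted p = 0.999), and arrays 1 and 2 differed by -0.48 from arrays 3 to 5 in Rac2-/- and by -0.76 in WT. Egr2, which together with Egr1 takes part in macrophage differentiation in mice, was measured at 7.44, 6.72, 7.58, 7.37 and 8.03 in Rac2-/- arrays 1 to 5 and at 6.13, 6.65, 7.26, 7.36 and 7.68 in WT arrays 1 to 5. Same-numbered arrays differed most in array 1, and the difference of 0.41 had an SE of 0.31 (limma, adjusted p = 0.864). For Egr2, arrays 1 and 2 differed by -0.58 from arrays 3 to 5 in Rac2-/- and by -1.04 in WT. Its genotype difference was 0.69 in arrays 1 and 2 and 0.23 in arrays 3 to 5.

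Ier2, a nuclear protein gene induced by serum, was the gene that followed the array set most closely. It was measured at 7.84, 7.79, 6.82, 6.66 and 6.59 in Rac2-/- arrays 1 to 5 and at 7.82, 7.48, 6.59, 6.65 and 6.60 in WT arrays 1 to 5. Arrays 1 and 2 exceeded arrays 3 to 5 by 1.12 in Rac2-/- and 1.03 in WT, without overlap in either genotype, which held for 1 of the 10 genes. The difference between genotypes was 0.11 (SE 0.34; limma, adjusted p = 0.999). The labels do not say what set these arrays apart.

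Dusp1 encodes MKP-1, the nuclear phosphatase that switches off p38, JNK and ERK after they have induced it. It was measured at 9.67, 9.08, 9.75, 9.88 and 9.33 in Rac2-/- arrays 1 to 5 and at 9.39, 9.50, 10.33, 10.31 and 10.60 in WT arrays 1 to 5. In arrays 3 to 5 every Rac2-/- value was below every WT value, and in arrays 1 and 2 the genotypes overlapped. Over all arrays the difference was -0.48 (SE 0.26; limma, adjusted p = 0.631), with -0.07 in arrays 1 and 2 and -0.76 in arrays 3 to 5. Arrays 3 to 5 alone gave an adjusted p of 0.0448 in limma, but the test that the array sets differ gave an unadjusted p of 0.0425 and an adjusted p of 0.858 (interaction term). Over all features the interaction was called for 0, with 1560 at an unadjusted p under 0.05.

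Across the 10 genes, Rac2-/- array 5 was the lowest of its genotype and set of 3 arrays in 8, all but Fosb and Egr2. The count was also 8 for Rac2-/- array 2 and for WT array 1, each in a set of 2 arrays, and 6 for WT array 3. The mean deviation of Rac2-/- array 5 from its set was -0.23, against 0.10, -0.10, 0.11 and 0.12 in Rac2-/- arrays 1 to 4. The mean deviations of WT arrays 1 to 5 lay between -0.03 and 0.04. The SD was larger in Rac2-/- than in WT for 6 of the 10 genes. The high Mki67 value was also on Rac2-/- array 5, which is 1 array, and its part in this pattern was not tested.

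**Figure D3:**
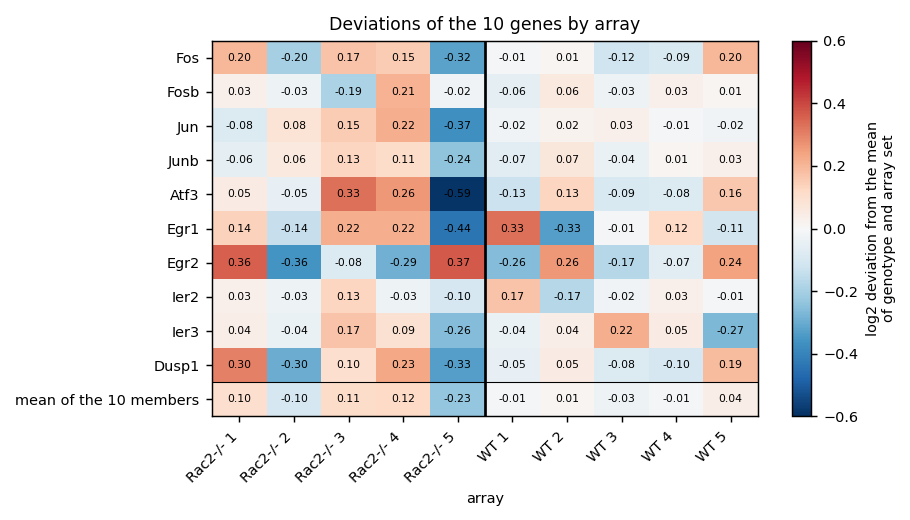
Deviation of each of the 10 genes on each array from the mean of its genotype and array set (log2 units; red above, blue below, Rac2-/- arrays left of the line and WT arrays right of it), with the mean of the 10 genes in the bottom row. Rac2-/- array 5 is at -0.59 for Atf3 and at 0.37 for Egr2. With 2 arrays in a set the deviations of arrays 1 and 2 mirror each other.

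Within genotype and array set, some of the genes went up and down together. Fos and Dusp1 deviated in the same direction on all 10 arrays (Pearson r = 0.96 over 10 arrays, and 0.93 without Rac2-/- array 5). Jun and Atf3, the pair that lay wholly below WT, had an r of 0.87 that rested on that array and was -0.24 without it. Over the 45 pairs the median r was 0.26, and -0.12 without Rac2-/- array 5. These are descriptions with no test, since the deviations of arrays 1 and 2 mirror each other and the 10 values are not independent.

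Of 16872 other genes ranked by their correlation with the mean deviation of the 10, the 5 most alike were Iigp1 (r = 0.997), Ifit2 (0.991), Skil (0.991), Nr4a2 (0.991) and Zbp1 (0.99), over 10 arrays. The mean deviation ranked against rests mainly on the Rac2-/- arrays (-0.23 to 0.12, against -0.03 to 0.04 on WT arrays), and arrays 1 and 2 mirror each other. With so few independent values, the top of a ranking this long can reach such r by selection alone. Without Rac2-/- array 5 their r was 0.96 to 0.99, but they were picked with it. The median r over pairs of the 10 was then -0.12. This likeness is a description with no test. Iigp1, Ifit2 and Zbp1 are interferon-induced genes, Skil encodes the SKI-like repressor of TGF-beta signalling, and Nr4a2 is an immediate early nuclear receptor. Zbp1 was the only one of the 5 that passed the test (difference -1.05; limma, adjusted p = 0.0346). Iigp1 and Ifit2 were also lower in Rac2-/- BMDMs, by -1.46 and -1.03, without passing (adjusted p of 0.146 and 0.0774). With the block Ifit2 passed (adjusted p = 0.0384), and with the array set term both did (adjusted p of 0.0292 for Iigp1 and 0.0112 for Ifit2). Skil differed by -0.12 and Nr4a2 by 0.27 (adjusted p of 0.999 and 0.98).

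The partners, feedback regulators and targets of these genes were read from lists of known pathway members. In all, 6 of 125 genes tested on these lists passed the test, against 1.9% of all features, and 21 did with the replicate block, against 6.35%. With a term for the array set 36 passed, against 9.34%. Of the genes on these lists that passed with the block and not without it, all but Ccn1 and Thbs1 also passed with that term. Of the other AP-1 and basic leucine zipper genes, 23 of 24 were tested, 2 rose, 1 fell and 20 did not pass, and the median difference was 0.00. Cebpd, a C/EBP factor of acute inflammatory responses, was measured at 8.39, 7.92, 8.00, 7.85 and 8.11 in Rac2-/- arrays 1 to 5, against 7.23, 7.16, 7.37, 7.41 and 7.38 in WT arrays 1 to 5. It was above WT in every array, by 0.75 (SE 0.11; limma, adjusted p = 0.00805), and was called in all 10 fits that left out 1 array. Cebpa, the C/EBP factor of myeloid commitment, rose by 0.65 (SE 0.12; adjusted p = 0.0216 in limma, called in 3 of 10 such fits). Mafk, a small Maf protein with no activation domain of its own, fell by 0.60 on the log2 scale (SE 0.11; limma, adjusted p = 0.0223, called in 4 of 10 such fits).

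Past the threshold with the block and not without it on this list were Creb1, the cAMP response factor (0.29, adjusted p = 0.0355 with the block and 0.14 without), Atf4, the factor of the integrated stress response (-0.56, adjusted p = 0.02 with the block and 0.171 without), and its target Ddit3, also known as CHOP (-0.86, adjusted p = 0.0452 with the block and 0.0588 without). Ddit3 lay below WT in every Rac2-/- array, and without Rac2-/- array 5 it was called with no block (-0.69, adjusted p = 0.047).

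The 28 other immediate early genes were lower in Rac2-/- in 20 cases and higher in 8, with a median of -0.08, and 0 passed the test in limma. With the replicate block 2 rose and 3 fell. Plk2, a polo-like kinase, had the largest difference at -1.32 (adjusted p = 0.0112 with the block and 0.0808 without), with 8.90, 8.39, 7.68, 7.62 and 7.83 in Rac2-/- arrays 1 to 5 and 9.53, 10.32, 8.97, 8.83 and 9.38 in WT arrays 1 to 5. Gadd45b, a stress sensor that acts on p38 and JNK signalling, was measured at 9.81, 9.23, 8.96, 9.01 and 8.23 in Rac2-/- arrays 1 to 5 and at 10.24, 10.49, 9.91, 9.93 and 10.16 in WT arrays 1 to 5. Its groups did not overlap, and Rac2-/- array 5 was again the lowest (difference -1.10, adjusted p = 0.0263 with the block and 0.0616 without). Without Rac2-/- array 1, Gadd45b (adjusted p = 0.0143) and Plk2 (adjusted p = 0.0324) were called in limma with no block. Ccn1, a matricellular protein gene, differed by -0.54 (adjusted p = 0.0131 with the block, 0.283 without it and 0.123 with the array set term). In the other direction were the GTPase gene Rhob (0.69, adjusted p = 0.00322 with the block and 0.0646 without) and the kinase gene Plk3 (0.45, adjusted p = 0.034 with the block and 0.764 without).

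Of the upstream kinases and serum response factor partners, 25 of 33 were tested, with 1 that rose and a median of 0.10. Rps6ka5 encodes MSK1, the kinase that phosphorylates histone H3 and CREB at immediate early genes. It was measured at 8.27, 8.17, 8.19, 8.15 and 8.18 in Rac2-/- arrays 1 to 5, against 7.62, 7.80, 7.60, 7.70 and 7.64 in WT arrays 1 to 5. This difference of 0.52 (SE 0.07; limma, adjusted p = 0.00455) was 0.51 in arrays 1 and 2 and 0.53 in arrays 3 to 5, and was called in all 10 fits that left out 1 array. Map2k3, which activates p38, differed by 0.34 (adjusted p = 0.0408 with the block and 0.0616 without).

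The MAP kinase phosphatases and Sprouty or Spred inhibitors showed no call among 17 genes (7 higher and 10 lower, median -0.09) in limma with or without the block. Dusp4, a nuclear phosphatase of ERK and JNK, and Dusp6, which acts mainly on ERK, had differences of opposite sign, -0.66 (adjusted p = 0.101) and 0.64 (adjusted p = 0.112). With a term for the array set both were called (adjusted p of 0.0386 and 0.0437), and Dusp4 also in arrays 3 to 5 alone (adjusted p = 0.0431) and without Rac2-/- array 1 (adjusted p = 0.049). Dusp6 lay between 9.64 and 10.18 in Rac2-/- arrays and between 8.87 and 9.63 in WT arrays. Spred1 differed by -0.23 (limma, adjusted p = 0.374). Of the corepressors that bind Egr proteins, Nab2 differed by 0.37 (limma, adjusted p = 0.876, and 0.033 with the array set term) and Nab1 by -0.13 (adjusted p = 0.997).

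Of known AP-1 and Egr target genes, 21 of 24 were tested, 11 higher and 10 lower in Rac2-/-, with a median of 0.12 and 1 call. Ccl2, the monocyte chemoattractant, fell, with 8.29, 7.66, 8.67, 8.54 and 8.99 in Rac2-/- arrays 1 to 5 against 9.24, 9.46, 10.27, 10.03 and 9.92 in WT arrays 1 to 5 (difference -1.35, SE 0.27; limma, adjusted p = 0.0298, called in 3 of 10 fits that left out 1 array). With the block, cyclin D1 (Ccnd1, -1.29) and the chemokine Ccl4 (-1.40) also passed on the lower side (adjusted p of 0.00592 and 0.0128 with the block, and 0.0606 and 0.319 without). On Rac2-/- array 5 Ccnd1 was 9.68, against 8.14 to 8.60 on Rac2-/- arrays 1 to 4 and 9.43 to 10.34 on WT arrays, and without that array it was called with no block (-1.55, adjusted p = 0.00673). Hmox1, the haem-degrading enzyme (0.35), and Thbs1, a matrix glycoprotein (0.52), passed on the higher side (adjusted p of 0.021 and 0.0315 with the block, and 0.0808 and 0.271 without), Thbs1 not with the array set term (adjusted p = 0.0837). The largest rise on this list was that of Il1b, at 0.99, which did not pass (limma, adjusted p = 0.423, and 0.175 with the block). It was 10.53 to 10.89 on Rac2-/- arrays 1 to 4, 8.43 on Rac2-/- array 5 and 9.21 to 9.43 on WT arrays.

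Heat shock genes, which stress induces alongside Atf3 and Fos, were lower in 8 of 9 genes tested, with a median of -0.13 and 1 call. Hspa1a, the inducible Hsp70, fell, with 7.20, 7.31, 6.99, 7.03 and 6.95 in Rac2-/- arrays 1 to 5 against 7.61, 7.56, 7.70, 7.82 and 7.51 in WT arrays 1 to 5 (difference -0.55, SE 0.10; limma, adjusted p = 0.0189). It was called in 6 of 10 fits that left out 1 array. The chaperone partners Hsph1 and Dnaja1 differed by -0.34 and -0.36 and passed with the block and not without it (adjusted p of 0.0216 and 0.048 with it, and 0.848 and 0.077 without). Without Rac2-/- array 5 Dnaja1 was called with no block (adjusted p = 0.0496).

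**Figure D4:**
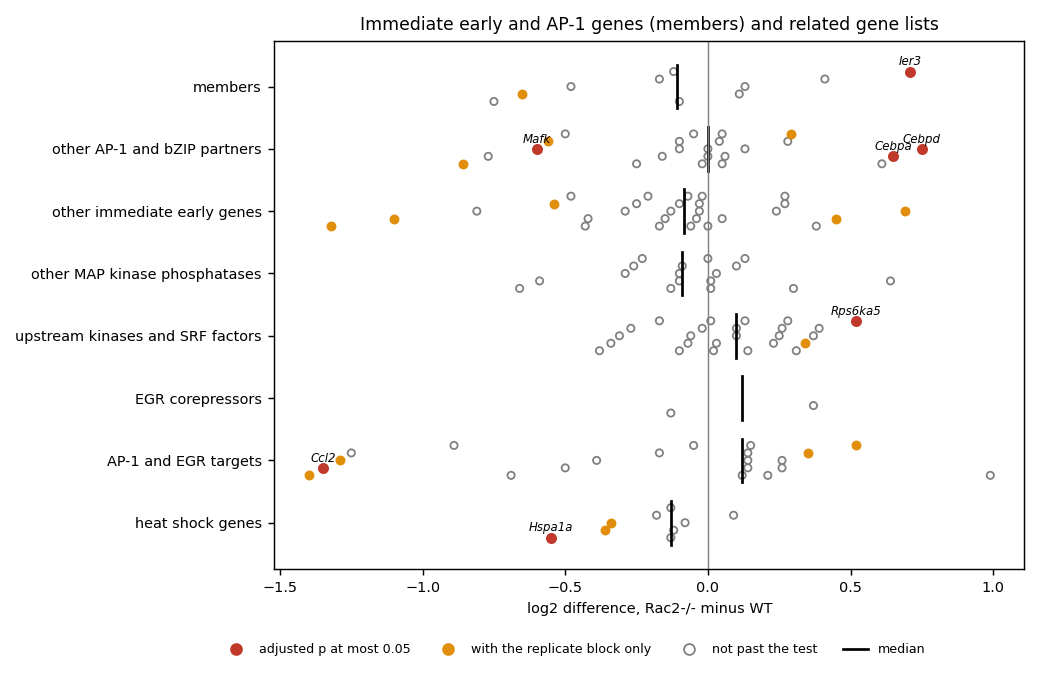
Log2 difference, Rac2-/- minus WT, of each tested gene in the 10 members and the 7 related lists, one row per list, with points spread vertically for legibility. Red points passed an adjusted p of 0.05 in limma, orange points passed with the replicate block only, open points passed neither, and black lines are list medians, which lie between -0.13 (heat shock genes) and 0.12 (AP-1 and Egr targets, and corepressors).

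Markers of other cells that bone marrow cultures can hold were read beside these results. The mast cell and basophil markers, 7 of 10 tested, had a mean level of 5.38 to 5.63 in Rac2-/- arrays and 5.73 to 6.29 in WT arrays, with 6 of 7 lower and 1 called (Hdc, histidine decarboxylase, -0.49, adjusted p = 0.0185 in limma). Fibroblast and stroma markers (9 of 10 tested, 3 higher and 6 lower) lay at 6.37 to 6.98 in Rac2-/- and 6.73 to 7.17 in WT, with 0 called without the block. With it 3 passed, Dcn (-1.21, adjusted p = 0.0173) and Postn (-0.69, adjusted p = 0.0039), both matrix genes, and the receptor gene Pdgfrb in the other direction (0.62, adjusted p = 0.0302). Neutrophil markers (10 of 10 tested, 2 higher and 8 lower) lay at 6.43 to 8.15 in Rac2-/- and 6.63 to 8.74 in WT, with 0 called in limma with or without the block. Of the dendritic cell markers (5 of 6 tested, 2 higher and 3 lower, 5.89 to 6.24 in Rac2-/- and 6.04 to 6.47 in WT), the chemokine receptor gene Ccr7 fell by 0.92 on the log2 scale (limma, adjusted p = 0.0141). With the block Siglech (-0.62, adjusted p = 0.0118) passed as well, and Xcr1 in the other direction (0.61, adjusted p = 0.00877). Of the B cell markers (2 of 5 tested, both higher), Cd79b passed with the block (0.78, adjusted p = 0.0144) and not without it (0.115). T cell (5 of 6 tested) and erythroid markers (3 of 6) had 0 calls in limma with or without the block. The part of these cells in the differences of Jun, Atf3 and Ier3 was not tested.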

How the data were processed

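The authors deposited log2 expression from Affymetrix Mouse 1.0 ST arrays, made with RMA (background correction, quantile normalization and probe summary), for 34760 features. Their methods go on to a filter (27031 genes expressed in at least 4 samples), ComBat and limma. Whether ComBat preceded deposit is not stated, and the array sets still differed in these values. Here as many features were kept by ranking on the fourth-highest array (4.73 or more). They were tested with limma 3.58.1 under R 4.3.3, with no block, by lmFit and eBayes, with Benjamini-Hochberg adjustment over all of them and a threshold of 0.05. Names came from the platform annotation, from features with 1 symbol (21640), and genes without one were not analysed here.

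Named are all 10 members, Rac2, in each other list the genes past the threshold with or without the replicate block (otherwise the 3 smallest p), Nab1, Nab2 and the 5 genes most like the members. Mki67 was named after its values were seen, and cell type markers were named where they passed with or without the block. The marker Cd68 was named because its groups did not overlap, and Il1b because it had the largest rise on its list. The members and lists were chosen with earlier results of these data known.

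Same-numbered arrays of both genotypes deviated together from their group means (r = 0.493 to 0.716), as did other numbers of the same array set (0.476 to 0.724), while numbers of different sets did not (-0.716 to -0.515). Every same-numbered pair was over 0.1, so the numbers were treated as pairing, from the values alone, and the block is given where it changes a call. Other numbers of the same array set were as alike, so this check cannot tell a pairing by number from the array set. Calls that need the block rest on that choice. Alternatives were the filter, the block, a term for the array set, ComBat (scanpy 1.11.5), each set alone, trended and robust variance, array weights, quantile and median scaling, the mean of a gene's features, an unpaired t-test (which the methods name in general, and not for the arrays), and leaving out each array. The number of arrays limits the precision.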

Additional observations from a re-analysis of the deposited data

Results flagged for a closer look

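In 22 groups of 5 arrays (the 10 genes and Rac2 in each genotype), the highest or lowest array was checked for a gap to its nearest neighbour above 0.71 of the group's range, which chance gives for about 1 in 20 groups. It was found for 3 groups. Rac2-/- array 5 stood below the rest of its group in Atf3, at 9.93 against 10.78 to 11.12, and in Ier3, at 8.92 against 9.26 to 9.35. WT array 5 stood above the rest of its group in Fos, at 9.17 against 8.84 to 8.91. Rac2-/- array 5 is also the array with the high Mki67 value of 10.51, and its part in these values was not tested.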

How the results depend on the processing

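The count of features called (514) was 1716 with the replicate block, 2524 with a term for the array set, 4386 after ComBat on the array sets, 2 in arrays 1 and 2 alone, 1487 in arrays 3 to 5 alone and 1811 with array weights, and 245 to 625 when 1 array was left out (lowest without WT array 3, highest without Rac2-/- array 1). Of the 10 genes, where Ier3 alone was called (1), the calls were 2 with the block and after quantile normalization (Jun and Ier3), 3 with the array set term (Jun, Atf3 and Ier3), 4 after ComBat and with array weights (these and Dusp1), 0 in arrays 1 and 2 alone and by an unpaired t-test with the same adjustment, and 0 to 2 when 1 array was left out. In arrays 3 to 5 alone the count was also 1, but the gene was Dusp1. The 6 calls on the related lists were 10 with a minimum value of 6 in 4 arrays, 21 with the block, 36 with the array set term, 55 after ComBat, 0 in arrays 1 and 2 alone, 21 in arrays 3 to 5 alone and 29 with array weights, and 2 to 12 when 1 array was left out. The interaction of genotype and array set, called for 0 features, was called for 8 without Rac2-/- array 2 and for 0 without any other array. The Fos difference changed sign to 0.24 in arrays 1 and 2 alone and ranged from -0.22 to 0.04 when 1 array was left out (above 0, at 0.035, without Rac2-/- array 5). The Ier2 difference ranged from -0.06 to 0.31 (below 0 without Rac2-/- array 1, at -0.061, or 2, at -0.047). Of 229 values for the 10 genes under the alternatives, 203 kept their direction and side of the threshold, 12 passed it newly, 10 no longer passed it and 4 changed sign. Fosb gave no value under the minimum of 6, which it did not reach in 4 arrays. The cause of these changes was not tested. Ier3, Jun and Atf3 kept their direction in every alternative run.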
